A study of Mus musculus with 6 samples.

Results

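The neuronal cytoskeleton and growth cone genes described here are 10 genes: Tubb3, Dcx, Map2, Stmn2, Stmn3, Crmp1, Nefl, Nefm, Ina and Gap43. They were measured by every probe set annotated to exactly 1 of these symbols, 21 of the 34945 probe sets with a single symbol, which cover 18193 genes. The cells were derivatives of the mouse embryonic stem cell line ES-E14TG2a on the 129P2 background, kept for 2 days in N2B27, a defined medium without serum that lets such cells become neural. Every line carried a doxycycline (Dox) inducible hairpin in a microRNA backbone (shRNAmir) against Geminin, and the controls carried it as well. The knockdown group, GemKD, had Dox, given in the labels as 500 ng, and the uninduced control had none, so Dox and knockdown cannot be told apart. The hairpin was shRNAmir #11 in experiments 1 and 3, and shRNAmir #9, carried by another line, in experiment 2. Each of the 3 experiments gave 1 GemKD and 1 control array of the Affymetrix Mouse Genome 430 2.0 type.

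Neurons are built around a stable axonal cytoskeleton. Microtubules of neuronal tubulin isotypes are bundled by structural proteins, their turnover is set by stathmins, and neurofilaments give the axon its calibre. The growth cone at the axon tip steers outgrowth and holds its own set of membrane-bound proteins. These genes are classical markers of postmitotic neurons, and several of them are also transcribed at some level in progenitors.

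The arrays lay on a common scale, with median probe set signals between 59.3 and 60.9, and precision is limited by how few they are. Gmnn, which encodes Geminin and is the target of the hairpins, was left at 27.6%, 48% and 36.7% of the control signal in experiments 1, 2 and 3, in the direction the labels give. The neurectoderm label was set against marker genes. The neural progenitor gene Sox1 had signals of 2108 to 2443 in experiments 1 and 2 but 523 and 577 in experiment 3, and Pax6 went the same way, from 614 to 823 to 135 and 158. These were the 2 that fell most of 8 progenitor markers. Fabp7 was higher in experiment 3, at 111 and 140 against 41.7 to 76, and the brightest probe set of Nes hardly varied (245 to 283). The pluripotency gene Pou5f1 was at 7338 to 7711 on all arrays, while Nanog was at 1565 to 2434 in experiments 1 and 2 and at 288 and 341 in experiment 3. Experiment 3 stood apart from the others in both arms. Of 14188 genes tested, 34.0% differed between experiment 3 and experiments 1 and 2, against 0.113% between experiments 2 and 1.

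Promoters of 6 of the 10 genes were in the RefSeq table of GRCm38.p6, as 250 bases before to 50 after the start. Stmn2, Nefl, Nefm and Gap43 were not matched. Of the sequences below, Tubb3 is shown as a gene that was higher in experiment 3, Ina as a gene whose brightest probe set hardly varied between arrays, and Dcx as the gene whose probe sets all had a mean level below the limit for testing. Capitals mark the GC box GGGCGG, the E-box CAGCTG and the TATA box TATAAA, searched on both strands. Each is given 5′ to 3′ on the strand of the gene.
Tubb3, chr8:123411303-123411602, plus strand: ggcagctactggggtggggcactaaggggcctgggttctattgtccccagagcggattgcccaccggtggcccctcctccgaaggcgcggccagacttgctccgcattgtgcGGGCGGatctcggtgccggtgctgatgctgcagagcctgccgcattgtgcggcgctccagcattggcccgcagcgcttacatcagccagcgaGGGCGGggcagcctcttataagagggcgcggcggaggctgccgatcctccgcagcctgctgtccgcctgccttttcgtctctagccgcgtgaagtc
Ina, chr19:47014431-47014730, plus strand: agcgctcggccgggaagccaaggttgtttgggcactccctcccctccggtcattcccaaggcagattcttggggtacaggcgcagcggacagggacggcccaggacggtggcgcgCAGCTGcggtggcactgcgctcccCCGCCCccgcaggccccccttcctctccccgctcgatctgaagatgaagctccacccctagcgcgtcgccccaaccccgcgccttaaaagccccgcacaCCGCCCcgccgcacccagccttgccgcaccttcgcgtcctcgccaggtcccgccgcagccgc
Dcx, chrX:143933170-143933469, minus strand: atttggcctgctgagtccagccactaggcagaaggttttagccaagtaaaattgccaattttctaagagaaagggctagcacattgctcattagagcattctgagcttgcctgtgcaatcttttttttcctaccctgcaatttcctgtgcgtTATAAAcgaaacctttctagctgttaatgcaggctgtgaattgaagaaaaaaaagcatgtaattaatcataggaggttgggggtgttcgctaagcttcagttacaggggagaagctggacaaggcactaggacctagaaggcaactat

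The GC content was 67.3% for Tubb3, 71.7% for Ina and 43% for Dcx, against a median of 52.7% over 32851 promoters. Tubb3 held 26 CpG dinucleotides, Ina 32 and Dcx 3, where the median promoter held 7. Map2 (77.7%) and Crmp1 (77% at its upstream start) were richer still in GC, and Stmn3 had 49.7%. The GC box was found 2 times each in Tubb3 and Ina and 5 times each in Map2 and the upstream start of Crmp1, where neighbouring copies can overlap, and 35.7% of all promoters held at least 1. CAGCTG was found in Ina alone among the 6 genes (16.3% of all promoters), TATAAA in Dcx alone (13.6%), and the E-box CATCTG, also searched on both strands, in Stmn3 alone (17.2%). TTCAGCACC, a part of the element bound by the repressor REST, was not among the letters of these windows (0.371% of all promoters held it).

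Signals of the 10 genes were followed by array. A signal is the linear probe set intensity. Signals of different probe sets are not compared with each other, and are added only in the sums over marker lists. A probe set was kept for testing where its mean level was above a signal of 19.5, the 30th percentile of all probe sets, which 16 of the 21 did. Each gene is given by its brightest probe set unless another is named, and 9 of the 10 genes were tested.

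**Figure D1:**
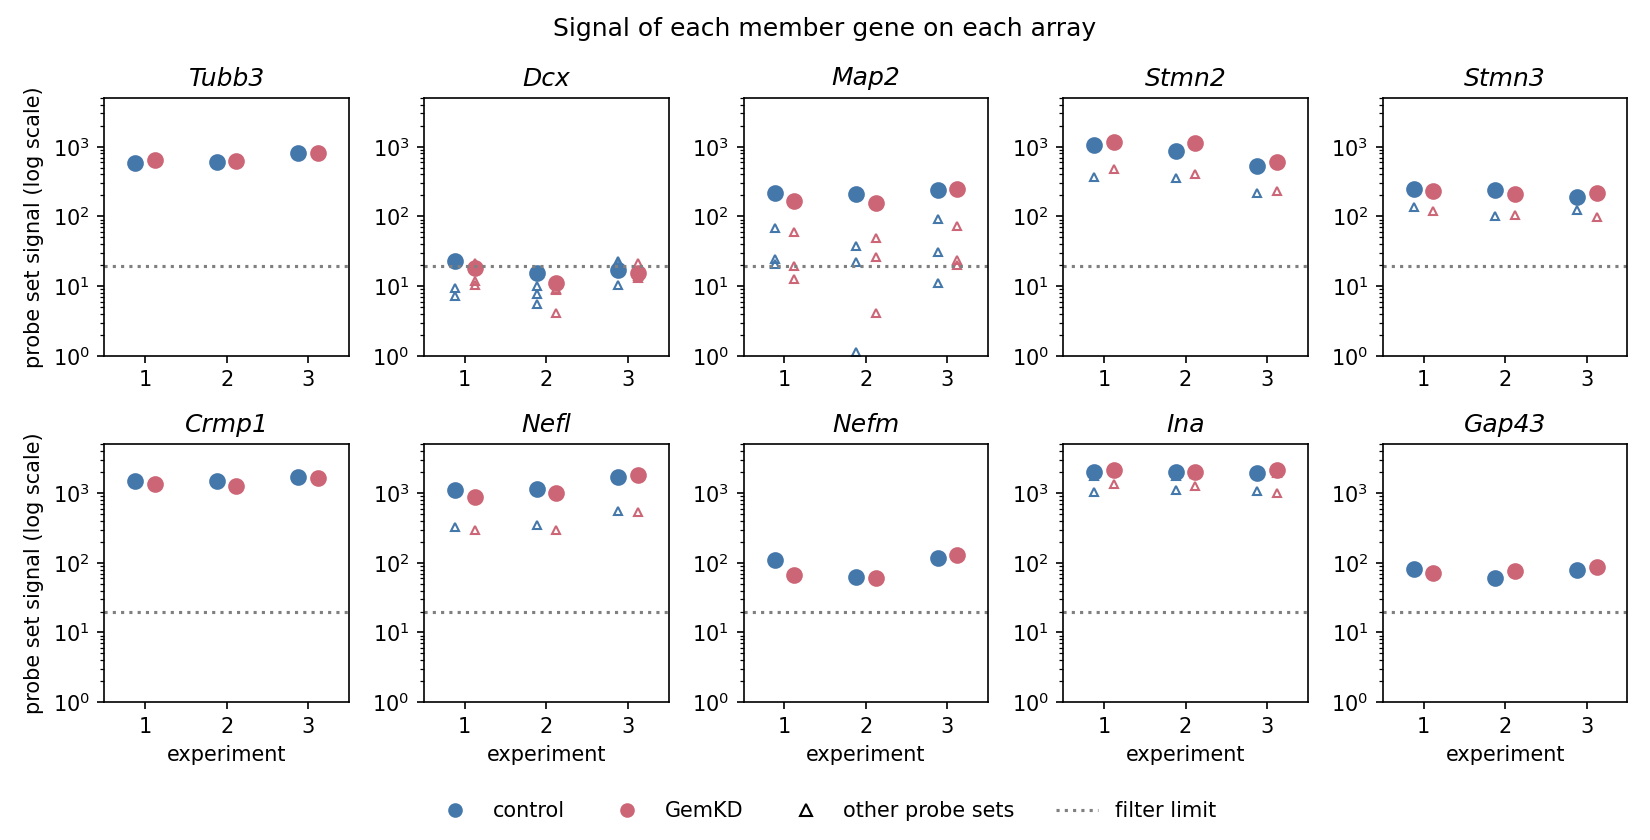
Probe set signal (vertical, log scale) of each gene on the 6 arrays, by experiment (horizontal), with controls in blue and GemKD in red. Filled circles are the brightest probe set, open triangles the others, and the dotted line is the limit of 19.5. Nefl sits higher and Stmn2 lower on both arrays of experiment 3, and Dcx lies near or below the line throughout.

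Among the genes of microtubules, Tubb3 encodes class III beta-tubulin, the tubulin isotype most used to mark young neurons. Its control signals were 589, 601 and 806 in experiments 1, 2 and 3, and its GemKD signals were 639, 630 and 801. Both arrays of experiment 3 lay above the 4 others, and within each experiment the arrays were close. Dcx encodes doublecortin, which stabilises microtubules in migrating neurons. Its 4 probe sets had signals from 4.12 to 23.2, with 6 of 24 values above the limit, and none had a mean level above it, so Dcx was not tested. Map2 encodes a dendritic microtubule-associated protein. Its probe set 1434194_at had control signals of 215, 213 and 240 and GemKD signals of 167, 158 and 244. The GemKD arrays of experiments 1 and 2 were the low ones, while both arrays of experiment 3 were alike. The dimmer probe set 1421328_at had 67.9, 37.9 and 90.7 in controls and 59.99, 48.7 and 72.7 in GemKD, also highest in experiment 3. Probe set 1440699_at ranged from 12.7 to 30.4, and 1421327_at, from 1.13 to 23.4, had a mean level below the limit.

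The stathmins Stmn2 and Stmn3 bind free tubulin and promote microtubule turnover in growing axons. Stmn2 had control signals of 1049, 877 and 520 and GemKD signals of 1172, 1143 and 594. The arrays of experiment 3 were the lowest, and the GemKD array was the higher of the pair each time. The second probe set of Stmn2, 1423280_at, had 367, 352 and 218 in controls and 472, 401 and 235 in GemKD, with the same order. Stmn3 was measured best by 1435113_x_at, a type of probe set that can also bind other transcripts, at 249, 238 and 190 in controls and 232, 211 and 213 in GemKD. Its other probe set, 1460181_at, had signals from 97.8 to 137, and neither separated the groups or the experiments. Crmp1 encodes a collapsin response mediator protein that links guidance signals to the cytoskeleton. Its control signals were 1475, 1483 and 1702 and its GemKD signals 1363, 1269 and 1651, with experiment 3 highest in both arms.

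Nefl and Nefm encode the light and medium neurofilament subunits, and are neighbours on chromosome 14 in the RefSeq gene order. Nefl had control signals of 1098, 1133 and 1696 and GemKD signals of 893, 1011 and 1822. Both arrays of experiment 3 lay well above the 4 others. Its second probe set, 1454672_at, had 329, 344 and 551 in controls and 296, 295 and 536 in GemKD, which showed the same step. Nefm, at 108, 61.9 and 117 in controls and 66, 60 and 131 in GemKD, was highest in experiment 3 by a small margin over the control of experiment 1. Ina encodes alpha-internexin, a neurofilament partner that appears early in neuronal differentiation. Its signals were 2015, 2024 and 1951 in controls and 2155, 1994 and 2173 in GemKD, so this probe set hardly varied over the 6 arrays. Its probe set 1448992_at had 1049, 1120 and 1076 in controls and 1353, 1263 and 1007 in GemKD, higher with GemKD in experiments 1 and 2 and not in experiment 3. Gap43, the growth cone phosphoprotein GAP-43, had 81.8, 61.5 and 79.2 in controls and 71.6, 75.2 and 87.9 in GemKD, and its groups overlapped.

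The comparison of GemKD with control asks whether these genes respond to loss of Geminin during neural fate acquisition. None of the 9 tested genes was called higher or lower. Differences are log2 fold changes of the signal plus 16, tested with limma over all 14188 genes (Benjamini-Hochberg adjusted p under 0.05). The share of all genes called was 0.00705%, which is 1 gene, or 0.0352% with the experiment as a block. The 1 gene was not the target: Gmnn, 2.72-fold lower (log2 -1.44), had a limma adjusted p of 0.332 without the block and was called only with it (1.95e-06). Each member had a limma adjusted p of 0.9998 without the block and between 0.714 and 0.9995 with it. The median over the 9 genes was -0.03, against 0.002 over all genes.

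**Figure D2:**
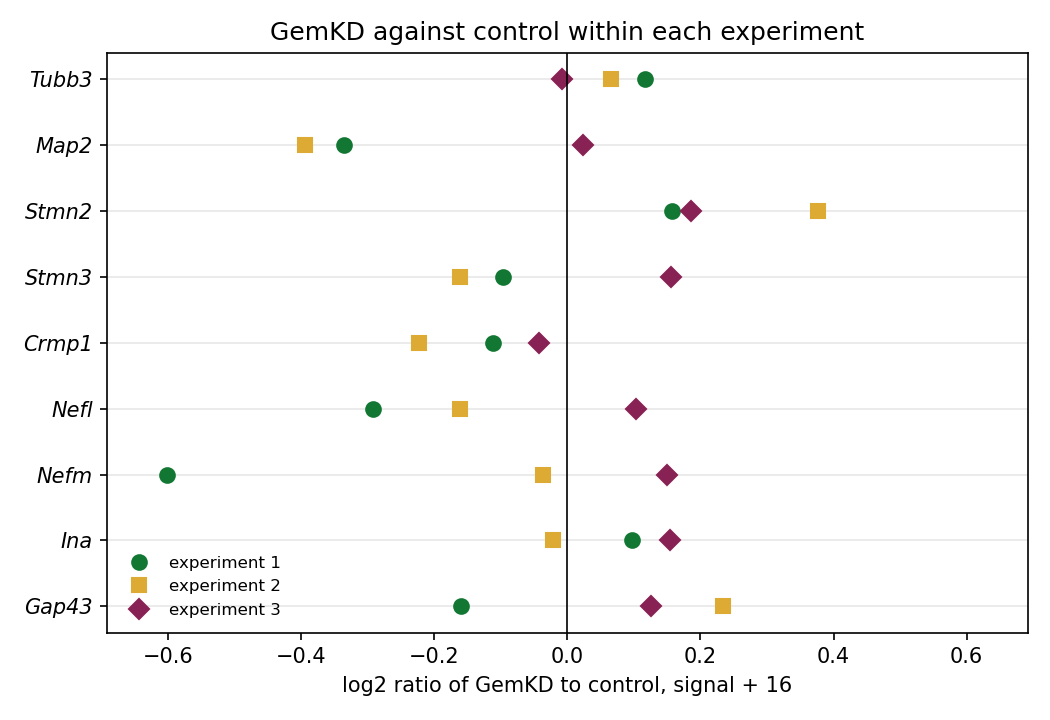
The log2 ratio of GemKD to control (horizontal, signal plus 16) within experiments 1, 2 and 3 for the 9 tested genes (vertical), each by its brightest probe set and with 1 array per arm. Stmn2 lies to the right and Crmp1 to the left of 0 in all 3 experiments, and the other 7 genes lie on both sides.

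Stmn2 had the largest positive difference, with a mean of 815 ± 269.7 in controls and 969.6 ± 325.6 in GemKD (SD over 3 arrays each). This gave a log2 fold change of 0.24 (95% interval -0.53 to 1.01, or 0.09 to 0.39 with the block, limma adjusted p = 0.714), with ratios of 0.16, 0.38 and 0.19 in experiments 1, 2 and 3. The second probe set had ratios of 0.35, 0.18 and 0.10. Crmp1 went the other way, from 1553 ± 128.7 to 1428 ± 199.3 (SD over 3 arrays each), with ratios of -0.11, -0.22 and -0.04. Its log2 fold change was -0.13 (95% interval -0.39 to 0.14, or -0.25 to -3.8e-05 with the block, blocked limma adjusted p = 0.996). These were the 2 of 9 genes with the same direction in all 3 experiments, where 23.9% of all tested genes had this (12.2% higher and 11.7% lower).

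Map2 had the largest negative log2 fold change, -0.24 (95% interval -0.64 to 0.17; blocked -0.47 to 0.002), with ratios of -0.34, -0.39 and 0.02. Its dimmer probe set 1421328_at had ratios of -0.14, 0.26 and -0.27, and 1440699_at had -0.49, 0.17 and -0.36. Both thus had the opposite sign in experiment 2, while their log2 fold changes over the 3 experiments, -0.05 and -0.23, were negative too. Nefl had -0.12 (-0.78 to 0.54, blocked -0.27 to 0.04) with ratios of -0.29, -0.16 and 0.10, and its second probe set had -0.15, -0.21 and -0.04. Nefm had -0.16 (-0.88 to 0.56, blocked -0.49 to 0.16), and its ratio of -0.60 in experiment 1 stood beside -0.04 and 0.15 in the others. Tubb3 had 0.06 (-0.30 to 0.42), Ina 0.08 (-0.07 to 0.22), Gap43 0.07 (-0.29 to 0.42) and Stmn3 -0.03 (-0.35 to 0.28). Their blocked intervals were -0.10 to 0.21, -0.04 to 0.19, -0.23 to 0.37 and -0.26 to 0.19, in this order. For Ina, probe set 1418178_at was the 1 of 16 whose groups did not overlap, at 1746, 1757 and 1865 in controls and 2046, 1888 and 1932 in GemKD, where 5.08% of all probe sets above the limit did not. It was not called with the block in a fit over all probe sets (limma adjusted p = 0.992), in which 0.00952% of them were.

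Whether the GemKD difference itself differed in experiment 3 was tested by an interaction term. None of the 9 genes was called, and 0.0141% of all genes were. Nefl had the smallest p, with a GemKD effect higher in experiment 3 by 0.33 on the log2 scale (95% interval 0.09 to 0.57, limma adjusted p = 0.233), followed by Map2 (0.39, 0.01 to 0.77, adjusted p = 0.366). The second probe set of Nefl had 0.14. The dimmer probe sets 1421328_at and 1440699_at of Map2 had the opposite sign, -0.33 and -0.19. With experiments 1 and 2 alone and the experiment as a block, where 0.204% of all genes were called, none of the 9 was. Stmn2 then had 0.27 (0.12 to 0.42, limma adjusted p = 0.167), Map2 -0.36 (-0.59 to -0.14, 0.214) and Nefl -0.23 (-0.37 to -0.08, 0.229). The effect of hairpin 9, used in 1 experiment, differed from that of hairpin 11 for none of the 9 (0.296% of all genes).

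Experiment 3 was then set beside experiments 1 and 2 with both arms together. Nefl and Nefm were higher there, by 1.70 and 1.59-fold, with Tubb3 (1.30-fold), Map2 (1.27-fold) and Crmp1 (1.20-fold), while Stmn2 was 1.87-fold lower. Of the 9 genes 5 were called higher and 1 lower, where 11.9% of all tested genes were called higher and 22.1% lower, 34.0% in all. The median of the 9 was 0.26, against -0.04 over all genes. Experiment 3 is 1 experiment, so this limma test compares these arrays with the spread left within experiments, and says nothing of how often such a difference would recur. In these whole-culture RNA samples, fewer cells of a type and less RNA per cell cannot be told apart.

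**Figure D3:**
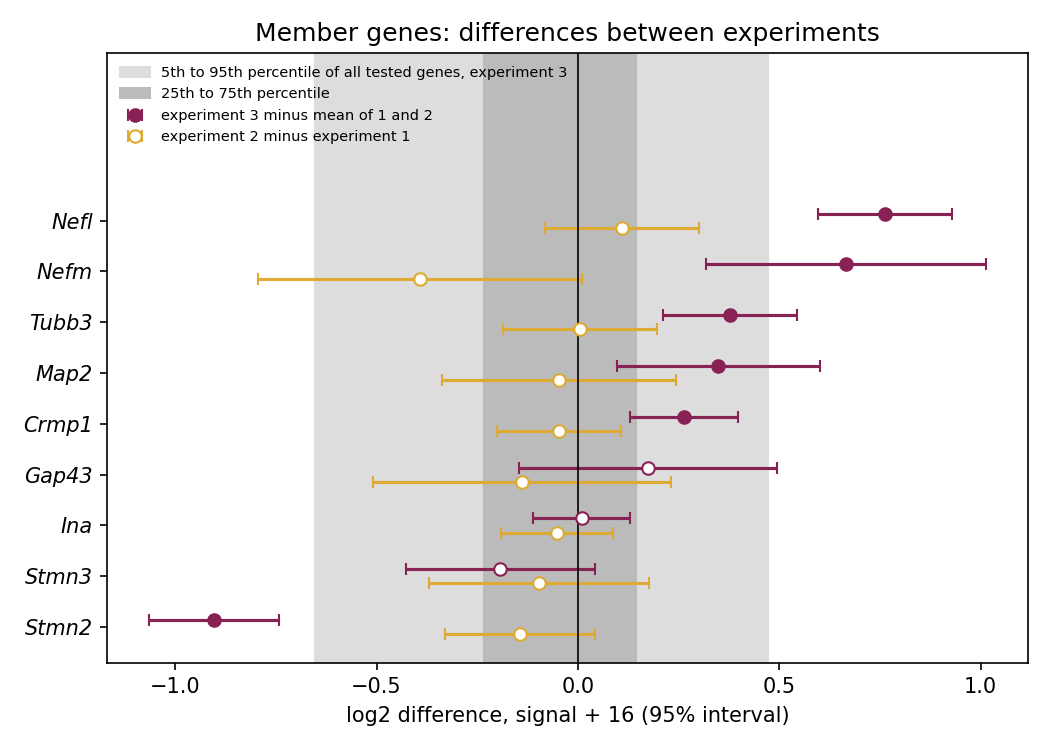
The log2 difference with its 95% interval (horizontal, signal plus 16) for the 9 tested genes (vertical), for experiment 3 minus the mean of experiments 1 and 2 (purple) and for experiment 2 minus experiment 1 (yellow). Filled points have a limma adjusted p under 0.05, and grey bands hold the central 50% and 90% of all tested genes in the experiment 3 comparison. Nefl and Nefm lie above and Stmn2 below the bands, and no yellow point is filled.

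For Nefl the log2 difference was 0.76 (SE 0.078, limma adjusted p = 2.93e-06), and 0.76 in its second probe set (limma adjusted p = 1.61e-04 over all probe sets, of which 26.5% were called). Nefm had 0.66 (SE 0.16, adjusted p = 0.00526). Tubb3 had 0.38 (SE 0.077, adjusted p = 0.00155). Map2 had 0.35 (SE 0.12, adjusted p = 0.0324) and 0.50 in the dimmer 1421328_at, and Crmp1 had 0.26 (SE 0.063, adjusted p = 0.0044). Stmn2 had -0.90 (SE 0.076, adjusted p = 3.94e-07), with -0.76 in its second probe set (2.29e-04). The remaining 3 genes were not called. Ina had 0.01 (95% interval -0.11 to 0.13), Gap43 0.17 (-0.15 to 0.49) and Stmn3 -0.19 (-0.43 to 0.04). The dimmer probe sets of Ina had 0.03 (1418178_at) and -0.19 (1448992_at, -0.38 to 4.1e-04), neither called. The arrays of experiment 3 did not overlap the 4 others for 6 of the 9 genes, with 5 above and 1 below. Over all genes tested this held for 50.7% (19.7% above the 4 others and 31.0% below). The 6 are the genes called on these same arrays, so this is no separate evidence.

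The calls of Nefl, Tubb3 and Stmn2 were kept when any 1 array was left out. Without the GemKD array of experiment 3 the count of genes called higher fell from 5 to 2, with Nefm at 0.43 (limma adjusted p = 0.12), Crmp1 at 0.20 (0.0533) and Map2 at 0.15 (0.393). Map2 was also lost without the GemKD array of experiment 1 (0.31, 0.0881) or 2 (0.29, 0.122). Against experiment 1 alone, which has the same hairpin label as experiment 3, Nefl was higher by 0.82 and Stmn2 lower at -0.98, and Map2 (0.32, 0.0899) and Nefm (0.47, 0.0761) were not called. Between experiments 2 and 1 none of the 9 was called, and the differences lay between -0.39 for Nefm and 0.11 for Nefl.

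Related genes came from lists set out beside the members, and the 4 of highest signal are named in each of 6 lists. Of the remaining list, REST and its cofactors, only Rest is. For the counts in experiment 3, 11.9% of all tested genes were called higher and 22.1% lower, 34.0% in all. Among 8 further intermediate filament genes 3 were called higher and 1 lower in experiment 3. The heavy neurofilament gene Nefh was at 473 to 588 in experiments 1 and 2 and at 810 and 868 in experiment 3 (log2 0.64, limma adjusted p = 6.38e-05). The light, medium and heavy subunit genes were thus all called higher, while Ina was not called. Nefm was the least firm of them, not called against experiment 1 alone or without the GemKD array of experiment 3. Vim, the vimentin gene of progenitors and mesenchyme, fell by 0.41 on the log2 scale (1.02e-05). Prph, which encodes peripherin, had -0.12 and Nes, which encodes nestin, had 0.10, neither called, and a dimmer probe set of Nes had 1.60. Of 12 other tubulins 3 were called higher and 1 lower, together about the share of all genes called. Tuba4a rose by 0.51 and Tubb4b by 0.17 (-1.21 in its dimmest probe set), and Tuba1a and Tubb5 had -0.03 each.

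**Figure D4:**
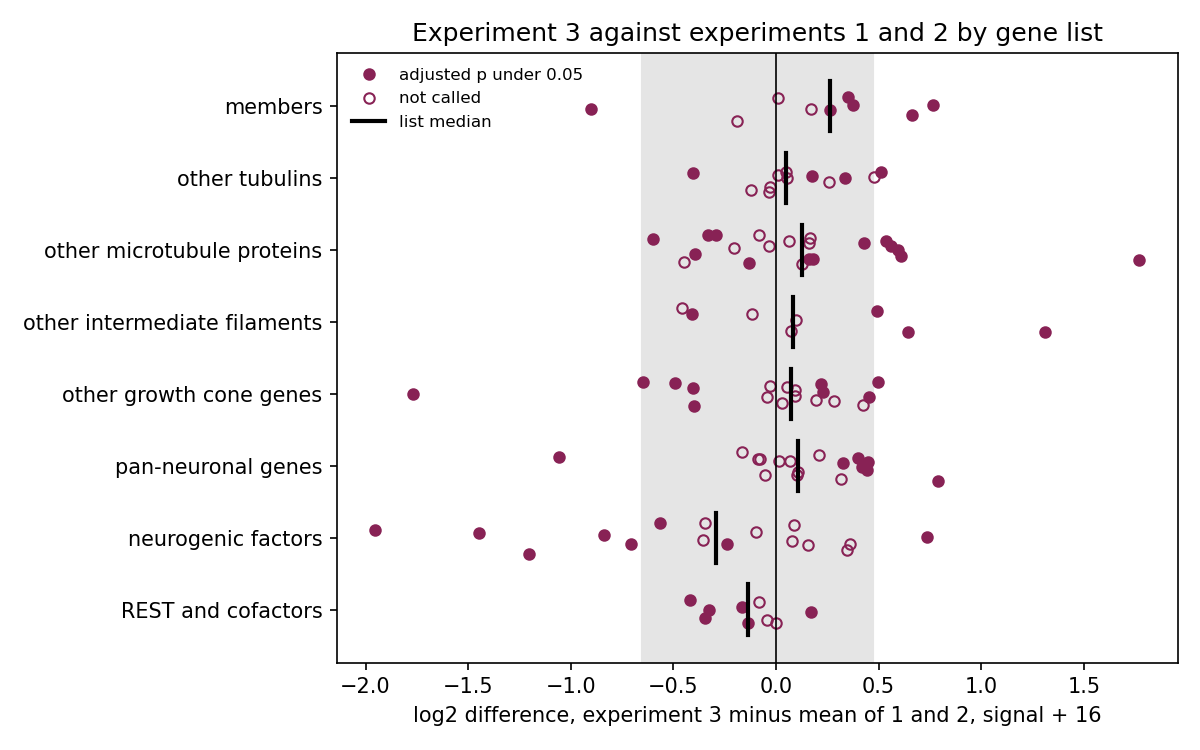
The log2 difference of experiment 3 minus the mean of experiments 1 and 2 (horizontal, signal plus 16) for each tested gene, by list (vertical). Filled points have a limma adjusted p under 0.05, black bars are list medians, and the grey band holds the central 90% of all tested genes. The member genes have the highest median, 0.26, and the neurogenic factors the lowest, -0.29.

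Of 21 other genes for microtubule-associated, stathmin and CRMP proteins 8 were called higher and 5 lower. Over all tested genes the shares were 11.9% and 22.1%. Stmn1, the stathmin of dividing cells, fell by 0.13 (limma adjusted p = 0.00644), with 0.01 in a dimmer probe set. Dpysl2, a relative of Crmp1, rose by 0.18 and the microtubule end-binding gene Mapre1 by 0.16. Map1b had -0.04, and 0.45 and 0.37 in dimmer probe sets. Stmn4, a neuronal stathmin, had the largest positive difference of the related list genes and was singled out after its values were seen. It went from 56.4 to 93 in experiments 1 and 2 to 334 and 256 in experiment 3 (1.77, adjusted p = 3.55e-07), against the direction of Stmn2. Of 18 other growth cone and guidance genes 4 were called higher and 5 lower. Basp1, a membrane protein related in function to GAP-43, fell from between 9480 and 9670 to 7046 and 7407 (-0.40, adjusted p = 2.08e-07). The actin-binding membrane proteins Marcks (0.22) and, not called, Marcksl1 (0.09) had positive values, although Marcks had -0.11 and -0.23 in 2 dimmer probe sets, and the semaphorin receptor gene Plxna1 rose by 0.23. Ncam1, the neural cell adhesion molecule gene, also named after its values were seen, fell from between 366 and 456 to 110 and 105 (-1.77, adjusted p = 1.19e-08; -0.17 to -1.96 in dimmer probe sets).

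Of 17 pan-neuronal genes 6 were called higher and 1 lower, where 11.9% and 22.1% of all tested genes were. The RNA-binding protein gene Elavl2 rose by 0.32 and the ubiquitin hydrolase gene Uchl1 by 0.40. The vesicle genes Rab3a (-0.05) and Vamp2 (0.21, and -0.81 in a dimmer probe set) were not called. Of the neuron markers that are not members, Elavl3 rose by 0.42 and Syt1 had -0.08. Elavl4 fell by 1.06 on the log2 scale (limma adjusted p = 6.02e-06). Rbfox3 had 0.79 (limma adjusted p = 0.00137) in its brightest probe set, with a mean of 61.2 in experiments 1 and 2 and 106 and 129 in experiment 3. Another probe set of Rbfox3, with a mean level of 67.1 over the 6 arrays, had -0.01, and the dimmest had 0.16. The probe set used was thus the brightest through its values in experiment 3. The call of Rbfox3, also in the counts of pan-neuronal genes and neuron markers, depends on that choice. Among 16 neurogenic transcription factors 1 was called higher and 7 lower, with a median of -0.29. Neurod1 was the higher, from 393 to 662 in experiments 1 and 2 to 789 and 922 (0.74, 6.75e-04). Insm1 fell by 1.45 (1.66e-08), from between 918 and 1235 to 364 and 414, and Sox11 fell by 0.24. Ebf1, named after its values were seen, had the largest negative difference of the related list genes (-1.95, 2.50e-08; -0.38 to -1.62 in dimmer probe sets), while Sox4 had 0.09 and was not called. Rest, a repressor of neuronal genes, fell by 0.14 (0.0463). Of the 9 genes of REST and its cofactors 5 were called lower and 1 higher, with a median of -0.14. The related lists had medians in GemKD against control between -0.05 for the intermediate filaments and 0.08 for the growth cone genes. A positive difference was seen for 17 of the 18 growth cone genes, where 7258 of 14188 genes had one. It was also seen for 8 of the 9 genes of REST and its cofactors, and for 3 of the 8 intermediate filament genes. Of the growth cone genes 5 were higher in all 3 experiments, as were 12.2% of all genes. Genes on the same arrays are not independent, so the count of signs is no test. None of the 101 list genes outside the members was called in GemKD against control with or without the block.

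Markers of other cell states moved with experiment 3 too, and their part in the member differences was not tested. The counts stand beside 11.9% of all tested genes called higher and 22.1% called lower. In the summed signals the brightest gene weighs most. This was Pou5f1 for pluripotency, Sox2 for neural progenitors and Dnmt3b for primed epiblast. Of 7 pluripotency markers 5 were called lower (Nanog, Klf4, Zfp42, Dppa3 and Tbx3, at -2.61, -1.91, -1.19, -1.04 and -0.50), and their summed signal was 10144 to 10460 in experiment 3 and 13963 to 16096 in the others. Of 8 neural progenitor markers 5 were called lower and 1, Fabp7, higher (6610 to 7178 against 9883 to 10411). Sox1 and Pax6 fell most, by 4.12-fold and 4.74-fold. On the log2 scale Sox2 fell by only 0.18 and Fabp7 rose by 0.97, and Nes and Hes5 were not called. Of 5 primed epiblast markers 4 were called higher and 1 lower (20380 to 20750 against 13855 to 15849). Of 7 fibroblast markers 5 were called lower and 2 higher (1712 to 1753 against 1828 to 2059). Of 5 tested trophoblast markers 1, Tfap2c, was called lower and 2, Krt8 and Krt18, higher. The trophoblast sum (1192 to 1226 against 1303 to 1558) was lower through Tfap2c, at 202 and 318 against 866 to 1130. The summed signal of 8 neuron markers, which include Tubb3, Dcx, Map2 and Stmn2 and of which 4 were called higher and 2 lower, was 2178 to 2383 in experiment 3 and 2344 to 2642 in the others. Stmn2 set this order: without it the sum was 1657 to 1789 in experiment 3 and 1388 to 1526 in the others. The largest part of that sum was Tubb3, itself called higher, at 801 and 806 in experiment 3 and 589 to 639 in the others. Each order thus follows a single bright gene, and neither sum shows a joint change of the neuron markers. Of tested markers of glia, endoderm and mesoderm none was called. Of 3 of neural crest 1, Foxd3, was called higher (log2 0.72), and Sox10 (0.08) and Tfap2a (-0.20) were not called. The glial markers S100b and Olig1, the mesoderm markers Kdr and Mixl1 and the endoderm marker Afp had mean levels below the limit and were not tested, though single arrays reached 27.6 for Olig1 and 24.8 for Afp.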

How the data were processed

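Per the labels' protocols, RNA of each culture was labelled with biotin and hybridised to 1 of 6 arrays. The table the authors deposited holds a linear intensity for each of 45037 probe sets. How it was summarised and normalized is not given in the sources used here. Between 1.58% and 1.69% of the values of an array were exactly 1. Values were used as log2 of the intensity plus 16, with no further normalization. Platform annotation gave 1 symbol for 34945 probe sets, several for 932 and none for 9160, and Entrez identifiers in the RefSeq table of GRCm38.p6 changed no member symbol. Each gene was represented by its brightest probe set, and 14188 genes with a mean above the 30th percentile (a signal of 19.5) were tested with limma 3.58.1 in R 4.3.3 (lmFit, eBayes with an intensity trend, two-sided), which was tested on simulated data.

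The main comparison of GemKD and control had no block, and an alternative blocked on the experiment. The experiment number pairs the arrays, since each experiment had its own control in the same line. Deviations from the group means correlated by 0.487, 0.474 and 0.716 within experiments 1, 2 and 3, by 0.319 and 0.420 between experiments 1 and 2, and by -0.605 to -0.491 between experiment 3 and the others, so the pairing rests on the labels. Experiment 3 was compared in a fit with treatment and experiment. The rule named all members, Gmnn, Rest, the 4 genes of highest signal in each of 6 related lists and any of their genes called in GemKD against control. Outside it, marker genes were named from the marker lists, and Stmn4, Ncam1 and Ebf1 after their values were seen. The members and lists were chosen with earlier results of these data known. Alternatives were pseudocounts of 1 and 64, no filter or the 50th percentile, the mean of probe sets, all probe sets, quantile normalization, no trend, and leaving out arrays or experiments. The hairpin test, the comparison of experiments 2 and 1 and the block without 1 experiment were added after seeing the data.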

Additional observations from a re-analysis of the deposited data

How the results depend on the processing

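No member gene was called in GemKD against control, or in the interaction with experiment 3, under any alternative run. The log2 fold changes of GemKD against control changed sign when arrays or experiments were left out for 6 genes, ranging from -0.052 to 0.20 for Tubb3, -0.048 to 0.55 for Stmn2, -0.43 to 0.082 for Nefl, -0.46 to 0.057 for Nefm, -0.15 to 0.038 for Stmn3 and -0.038 to 0.18 for Gap43. With the replicate block and 1 experiment left out, the ranges were -0.32 to 0.057 for Nefm, -0.13 to 0.029 for Stmn3 and -0.016 to 0.18 for Gap43, and the others kept their sign. The count of all genes called was 1 in the main comparison, 0 without an intensity trend, 5 with the replicate block, 29 with the replicate block and experiments 1 and 2 alone, 0 to 3 when arrays or experiments were left out and 26 to 68 with the replicate block and 1 experiment left out. Leaving out 1 array also leaves the difference between experiments unbalanced over the arms.

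In experiment 3 against experiments 1 and 2, 4830 genes were called, against 8354 of 31526 over all probe sets and 3026 without an intensity trend. The members called higher numbered 5, against 2 without a trend, 3 against experiment 1 alone and 2 to 5 when 1 array was left out. Nefm and Crmp1 were lost without a trend (adjusted p = 0.0557 and 0.0705), and Map2, the weakest call, also with no filter, the mean of probe sets, all probe sets, experiment 2 alone and no treatment covariate (0.0522 to 0.0905). Nefl, Tubb3 and Stmn2 were called under every alternative run. Ina, near 0, had -0.050 with the mean of probe sets, -0.017 against experiment 1 alone and -0.049 to 0.068 when 1 array was left out. The interaction called 2 genes, 1 each with no filter, at the 50th percentile and with the mean of probe sets, and 0 without a trend, and Ina had -0.12 with the mean of probe sets against 0.12. Leaving out 1 array from the interaction leaves no residual degrees of freedom, so it was not run. Of 155 list and marker genes 5 changed sign under quantile normalization, none of them called, and 9 changed their call. Over all genes the split of experiment 3 then moved from 1691 higher and 3139 lower to 2046 and 2692. Dim probe sets limit what can be said of Dcx, Gap43 and Nefm.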
